A study of Drosophila melanogaster with 28 samples.

Results

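MSL2 binding to reconstituted Drosophila chromatin was compared between a mixture with CLAMP and MSL2 alone, using the peaks of an MSL2 antibody. The peaks of both conditions formed 476 regions, of the 1098 regions in all 9 peak lists of the series. A peak counted as kept if it overlapped a peak of the other condition by at least 1 bp, as gained if it was called with CLAMP only and as lost if it was called with MSL2 alone only. By this rule 344 peaks were gained, 122 were kept and 10 were lost. The regions came from 6 of the 28 libraries, 3 with MSL2 + CLAMP and 3 with MSL2, and 3 further MSL2-antibody libraries served as the negative control, for which the labels name no added factor.

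All of these libraries used chromatin assembled in vitro for 5 h. Its DNA was isolated from the BG-3 line, which derives from the larval central nervous system. Proteins were bound for 30 min, the chromatin was crosslinked and partly cut with MNase, and bound DNA was recovered with the antibody. The DNA came from 1 line, and the labels name neither the assembly system nor the source of the proteins. Each condition has 1 list called on merged libraries. Intervals below are exact 95% intervals that cover the counting error of peaks only, no replicate error is known, and no test between the conditions was run.

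MSL2 is the subunit of the male-specific lethal complex that recognises DNA. In male flies this complex gathers on X, first at a set of high-affinity sites with GA-rich elements, and transcription of the whole chromosome is raised. The noncoding roX RNAs are part of the complex and their genes hold such sites. CLAMP, a zinc finger factor, recognises GA repeats on all chromosomes and is known to help the complex to its sites on X.

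With CLAMP present the MSL2 list held 466 peaks, against 132 with MSL2 alone. The gained peaks were 73.8% of the peaks with CLAMP and the kept peaks 26.2%. Of the peaks with MSL2 alone, 92.4% were kept and 7.58% lost. The longer list came from fewer tags, 14660145 with CLAMP and 26822838 with MSL2 alone. Per 10000000 tags a peak held on average 344 tags with CLAMP and 139 with MSL2 alone, averages over whole lists that the file headers do not split into kept and gained peaks. Comparison with the negative control removed 98.2% of the putative peaks with CLAMP and 99.6% with MSL2 alone. A gained peak is therefore a site that passed the filters in 1 condition only, and its signal without CLAMP was not measured here.

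Most kept peaks, which overlap by the rule above, lay at nearly the same bases in both lists. The rule itself holds the centres of a kept pair within the width of a peak, so it bounds the largest shift. Peaks farther apart did not count as a pair. Within this bound most shifts were small. The centres of the 121 pairs on the arms were a median of 13 bp apart, with quartiles of 2 and 36 bp and a largest shift of 129 bp. With the pair on Y included, the centre was identical in 13 pairs and within 50 bp in 101 of 122 (82.8%). The kept site in lncRNA:roX2, which encodes a roX RNA of the complex, spanned X 11580230 to 11580380 in both lists. The same identity held for the kept site in psq, the GA-binding factor Pipsqueak (2R 10583270 to 10583420).

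The genes of the complex itself gained no peak in their bodies, where 1.61% of all genes had a gained peak. In so few genes a lack of gained peaks is near that share and does not set them apart. Of 7 genes of the complex and its partners, msl-2 had 2 kept and 2 lost peaks, and no peak of either list lay in msl-1, msl-3, mle, JIL-1 or Clamp or within 2 kb of them. The only gained peak within 2 kb of such a gene lay 825 bp outside mof, the acetyltransferase of the complex, in the body of GAA1 (X 5872865 to 5873015). No peak lay within 2 kb of lncRNA:roX1, the other roX gene, or of Trl, which encodes the GA-binding GAGA factor. The kept peaks in msl-2, the gene of the added protein, lay at 2L 3463341 to 3463491 and 3464431 to 3464581 with CLAMP. The lost ones lay 460 bp and 711 bp from these.

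The other lost peaks were few, and most lay in genes of varied function. Of the 10 lost peaks, 4 had a peak of the list with CLAMP within 1 kb, and the other 6 lay over 9 kb from one. The closest case was mtd on 3R, where the MSL2-alone peak at 5283054 to 5283204 and the gained peak at 5282869 to 5283019 had centres 185 bp apart and did not overlap. In CG1695 (X 20437093 to 20437243) a kept peak lay 294 bp away. In para, whose product is a sodium channel, the lost peak (X 16492474 to 16492624) lay 9184 bp from a kept peak of the same gene. Lost peaks farther from any site with CLAMP lay in Tlk, a chromatin-linked kinase, at 141913 bp, in Gs2, a glutamine synthetase, at 50083 bp, in CG15803 at 32618 bp, and in Slob, named for binding a potassium channel, at 941233 bp. The remaining lost peak (3R 5140383 to 5140533) lay outside genes, 1394 bp from CG12589, and 55897 bp from a peak with CLAMP.

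Gained peaks were spread over all large chromosome arms and were densest on X. X held 136 of the 333 gained peaks on the arms (40.8%, 35.5 to 46.3) and 67 of the 121 kept ones (55.4%, 46.1 to 64.4), where X makes up 17.6% of the arm length. Per Mb there were 5.78 gained peaks on X (4.85 to 6.83) and 1.79 on the autosome arms (1.55 to 2.06), a ratio of 3.23. For the kept peaks the densities were 2.85 and 0.49 per Mb, a ratio of 5.80. Both classes were thus denser on X over the whole list, and the intervals of their shares on X overlapped narrowly. In the first 50% of the list with CLAMP, in file order, the X share of the gained peaks was 10.2%, below the 17.6% of the length, so the direction for gained peaks turned there. That of the kept peaks was 35.5%, above it.

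**Figure D1:**
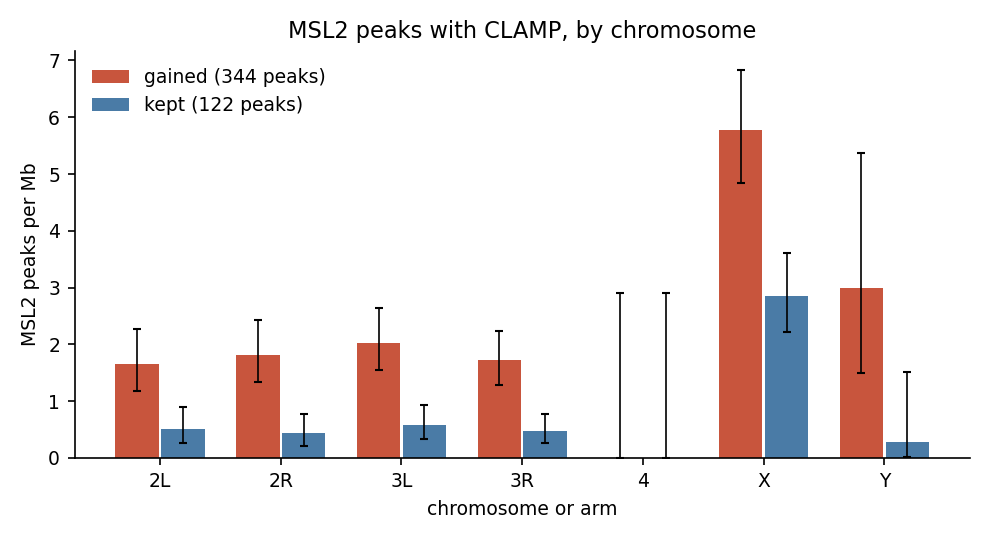
Density of gained (left bar of each pair) and kept (right bar) MSL2 peaks with CLAMP, in peaks per Mb, by chromosome or arm, with exact 95% Poisson intervals of the counts. X has the highest gained density, 5.78 per Mb, the 4 large autosome arms lie between 1.66 and 2.03 per Mb, and no peak lies on chromosome 4.

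The number of MSL2 peaks grew on every large chromosome. X had 203 peaks with CLAMP and 71 with MSL2 alone, a 2.86-fold difference. The autosome arms had 251 with CLAMP and 60 with MSL2 alone, 4.18-fold, with single arms between 3.4-fold on 2L and 5.18-fold on 2R. Gained peaks made up 67.0% of the peaks with CLAMP on X (60.1 to 73.4) and 78.5% on the autosome arms (72.9 to 83.4), against 73.8% over the list. Chromosome 4 had 0 of the 454 arm peaks, and 3 counts, taken as the limit, would be 0.661%. In the mixture with the CLAMP mutant, whose list shares its negative control with both, 53 of 146 gained arm peaks lay on X (36.3%, 28.5 to 44.7). Some sites were gained over MSL2 alone in both mixtures, for example those in heph, tmod and ca. The X shares of both mixtures thus rest partly on the same sites, and the shared sites were not counted.

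The Y chromosome had few peaks, most of them with CLAMP only. It held 12 peaks with CLAMP and 1 with MSL2 alone, so that 11 were gained (91.7% of 12, 61.5 to 99.8). Over the whole list 73.8% of the peaks were gained, a share inside this interval. Of the gained Y peaks, 6 lay in gene bodies, 2 of them in kl-5 (Y 124276 to 124426 and 132521 to 132671), a dynein heavy chain gene needed for sperm. The others lay 1 each in the Y genes PRY, Ppr-Y, ORY and CCY. Of the 11 gained Y peaks, 10 overlapped a FLAG peak of CLAMP alone, a list with 11 Y peaks in all. None overlapped a CLAMP-antibody peak of the MSL2 + CLAMP mixture, a list with 1 Y peak.

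Most gained sites lay more than 50 kb from a site of MSL2 alone. The median distance from a gained peak to the nearest MSL2-alone peak, centre to centre, was 107999 bp on X (quartiles 44416 and 259158 bp) and 673572 bp on the autosome arms (288475 and 1336355 bp). On X, 7 of 136 gained peaks lay within 10 kb of an MSL2-alone peak (5.15%, 2.09 to 10.3), and 5.52% of the length of X lies that close. Within 100 kb the shares were 47.1% of the gained X peaks (38.4 to 55.8) and 39.8% of the length. Counted from the gained peaks, the shares on X up to 100 kb thus included the share of length in their intervals. Within 500 kb the share of gained X peaks was 93.4% (87.8 to 96.9), above the 82.5% of the length.

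**Figure D2:**
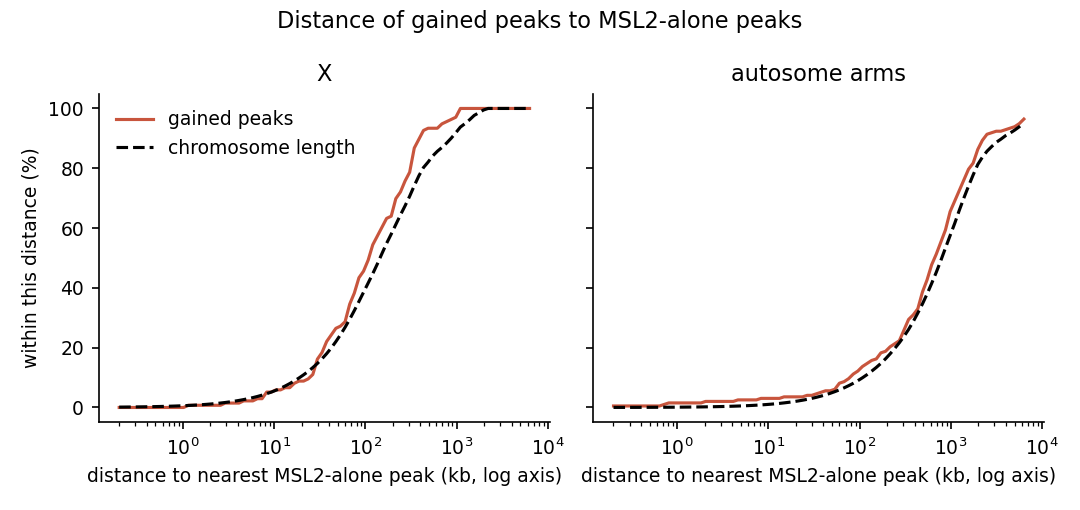
Share of gained MSL2 peaks within a given distance of an MSL2-alone peak (solid line, %) and share of chromosome length within that distance (dashed line, %), for X (left) and the autosome arms (right). The distance axis is logarithmic, in kb, and the lines run close together up to 10 kb on X, where they reach 5.15% and 5.52%.

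On the autosome arms a small number of gained peaks lay close to an older site. There, 6 of 197 gained peaks lay within 10 kb of an MSL2-alone peak (3.05%, 1.13 to 6.51), where 1.04% of the length lies, and 3 of these lay within 1 kb. Within 1 kb lies 0.105% of the length. The 3 sites were the one in mtd described above, at 185 bp from a lost peak, one in CG33003 (2L 4401862 to 4402012) at 661 bp and one in CG30184 (2R 23564268 to 23564418) at 756 bp. Within 50 kb the share was 5.58% (2.82 to 9.77), against 4.98% of the length. The share of gained peaks thus exceeded the share of length at short range, on few peaks, and lay near it at 50 kb.

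The other gained peaks among the 10 nearest to an MSL2-alone site lay 355 to 6013 bp from it. In Dop2R, a dopamine receptor gene, the gained peak (X 20023466 to 20023616) lay 1107 bp from a kept one. In brat, a translational repressor that limits neural stem cell growth, it lay 4224 bp from one (2L 19154650 to 19154800). Further cases were Pits on X at 2719 bp, FucT6 on X at 6013 bp, a site in a gene-poor stretch of 3L at 1965 bp, and a site on Y at 355 bp. Counted from the older sites, 13 of the 121 kept MSL2-alone peaks on the arms had a gained peak within 10 kb (10.7%, 5.85 to 17.7), where 4.71% of the arm length lies that close to a gained peak. Within 100 kb it was 62.0% (52.7 to 70.7) against 34.9% of the length. On X alone the share within 10 kb was 11.9% (5.3 to 22.2) against 10.3% of the length, and within 100 kb 82.1% (70.8 to 90.4) against 60.8%. On the autosome arms it was 9.26% (3.08 to 20.3) against 3.52% within 10 kb, and 37.0% (24.3 to 51.3) against 29.4% within 100 kb. At 100 kb kept sites on X thus had a gained peak nearby more often than the length alone would give, with an interval above it. The other intervals by chromosome class at 10 and 100 kb included the share of length. Within 5 kb on the autosome arms the share was 7.41% (2.06 to 17.9), on 4 of 54 kept peaks, above the 1.77% of the length.

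Most of the gained peaks farthest from any MSL2-alone peak lay toward the end of 3R. The last MSL2-alone peak of that arm lies at 23347056 to 23347206, so any peak near the arm end is far from one. Of the 10 farthest, 8 lay on 3R between 29146381 and 31914496, at 5799325 to 8567290 bp from the nearest MSL2-alone peak. They lay in heph, which encodes the RNA-binding protein PTB, in tmod, which encodes the actin-capping tropomodulin, in ca, in CG11504, CG15522 and CG14511, in Gycalpha99B, a subunit of soluble guanylate cyclase, and in Dop1R2, another dopamine receptor gene. The peak in heph (3R 31914346 to 31914496) was the most distant. The other 2 lay near the start of 2R, outside gene bodies, at 7231126 and 6153881 bp, and were early in the deposited list, at places 8 and 7 of 466.

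Some peaks came in close pairs, and all pairs of 2 gained peaks within 1 kb were on X. Neighbouring peaks of the list with CLAMP had centres within 1 kb in 10 cases, of which 6 joined 2 gained peaks, 3 a gained and a kept peak and 1 a pair of kept peaks in disco-r. The 6 gained pairs lay in fne, which encodes a neuronal RNA-binding protein (583 bp apart), sw, a dynein subunit gene (600 bp), CG11122 (687 bp), lncRNA:CR44833 (719 bp), dnc (775 bp) and run, a pair-rule transcription factor gene (883 bp). They included 12 of the 136 gained peaks on X (8.82%, 4.64 to 14.9) and 0 of the 197 on the autosome arms (0 to 1.86). X also carries more gained peaks per Mb, and the pairs were not compared with the number that this density alone would give. In CG11122 a further gained peak lay 1047 bp from the pair (X 11116712 to 11118596 for all 3). The authors' caller required at least 300 bp between peaks, which sets the lower end of such spacings.

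With a linking distance of 10 kb, 75 of the 466 peaks with CLAMP (16.1%) fell into 35 groups, 25 of them on X. Of these groups, 17 held gained peaks only, 14 both classes and 4 kept peaks only. No group held more than 3 peaks. The groups of 3 included those in brp on 2R, dnc and CG11122 with gained peaks only, and in eag with 2 kept peaks and a gained one. The next peak of any class was 26319 bp from a gained peak on X in the median and 141597 bp on the autosome arms.

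Most gained and most kept peaks lay in genes, at shares whose intervals overlap. Of the 333 gained arm peaks, 290 overlapped a gene body (87.1%, 83.0 to 90.5), and of the 121 kept ones 107 did (88.4%, 81.3 to 93.5), where gene bodies cover 69.6% of the arm length. The surplus lay inside genes and not at their ends. Within 500 bp of a gene end lay 56 gained peaks (16.8%, 13 to 21.3) and 21 kept ones (17.4%, 11.1 to 25.3), near the 17.9% of the length that lies there. Inside a gene and farther than 500 bp from any gene end lay 73.0% of the gained (67.9 to 77.7) and 71.9% of the kept peaks (63.0 to 79.7), against 56.6% of the length. Outside genes by more than 500 bp the shares were 10.2% (7.18 to 14.0) and 10.7% (5.85 to 17.7), against 25.4% of the length. The gene table gives no strand or exons, so starts and ends of genes, and exons and introns, were not told apart.

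**Figure D3:**
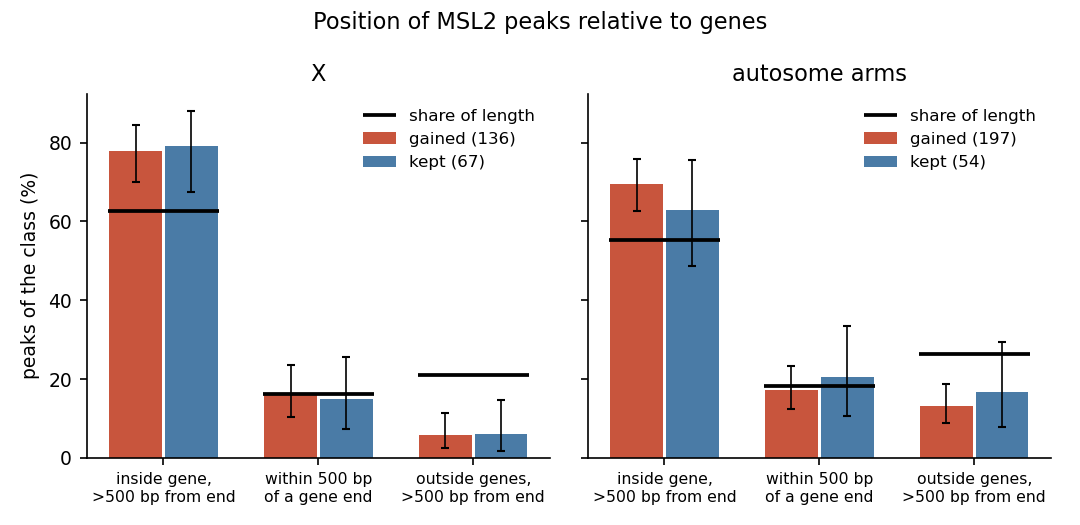
Share of gained (left bar) and kept (right bar) MSL2 peaks in 3 positions relative to genes, in %, with exact 95% intervals, for X (left) and the autosome arms (right). The black lines are the share of chromosome length in each position. On X the position inside genes holds 77.9% of gained and 79.1% of kept peaks, against 62.7% of the length.

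Genes with gained peaks were long and mostly protein-coding. Gained peaks overlapped 286 genes, 1.61% of the 17807 genes of the table, and 112 of these genes were on X. The longest gene under a gained peak had a median length of 20115 bp, and that under a kept peak 23371 bp, where the median over all arm genes is 1710 bp. A long gene covers more bases for a peak to fall on. Genes of at least 50 kb held 24.9% of the gained peaks (20.4 to 29.9) and 25.6% of the kept ones (18.1 to 34.4), close to their 22.6% of the arm length. Of the 286 genes, 277 were protein-coding (96.9%), against 78.3% of the table. Both shares count genes and not bases, and the protein-coding share of the gene length was not computed. Within the longest gene under it a gained peak lay a median of 23.6% of the gene's length from the nearer end and a kept peak 23.5%. Both lie close to the midpoint between the end (0%) and the centre of a gene (50%), which even placement would give.

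Most genes with a gained peak had a single one. At least 2 gained peaks lay in 24 genes, and at least 3 in 7. Sh, the Shaker potassium channel gene, had the most, 6 gained peaks and 1 kept one over 138941 bp. The kept site lay at X 18023822 to 18023972, and the gained ones lay 12097, 26509, 28564, 36854, 60310 and 67605 bp from the nearest MSL2-alone peak. Next came mamo, a zinc finger factor gene of the germ line, with 4 gained peaks and no kept one, all 234199 to 319487 bp from an MSL2-alone site. In brp, which encodes the active-zone protein Bruchpilot, 3 gained peaks lay within 2R 9517060 to 9521577. In dnc, the cAMP phosphodiesterase gene dunce, 3 lay within X 3317531 to 3326172, where lncRNA:CR44886 overlaps the gene and counts the same peaks. In hth, a homeobox gene that partners with Hox factors, 3 lay at 3R 10517021 to 10517171, 10525201 to 10525351 and 10548234 to 10548384.

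Genes with 2 gained peaks included Eip75B, an ecdysone-induced nuclear receptor gene, NFAT, SK, a calcium-activated potassium channel gene, Smr, a corepressor gene, CG34353, CARPB, CG43759 and Pzl, which encodes a mechanosensitive channel of the Piezo kind. A kept and a gained peak lay together in 20 genes. Beside Sh, these included Cph, eag and rdgA, each with 2 kept and 1 gained peak, and Smr with 1 kept and 2 gained. Ca-alpha1T, Dop2R, Ptpmeg2, Pits, CG42594, brat, CG33003, CG46320 and Myo81F had 1 of each. Their gained peaks lay at varied distances from the nearest MSL2-alone peak, 1107 bp in Dop2R and 80344 bp in Ca-alpha1T, for example.

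Several ion channel genes, most of them on X, had gained peaks, in a list written with earlier results of these data known. Of 46 ion channel genes 11 had a gained peak (23.9%), 8 of the 14 on X (57.1%) and 3 of the 32 on autosomes (9.38%). Over all genes the shares were 1.61%, 4.14% on X and 1.13% on autosomes. Channel genes are long, with a median of 24447 bp against 1695 bp for all genes. Per Mb of gene length the X channel genes had 15 gained peaks at 17.7 per Mb, against 6.89 per Mb for all X genes, and 6 of the 15 lay in Sh. The autosomal ones had 3.21 per Mb, against 2.18. Kept peaks were also denser in the X channel genes, at 7.1 per Mb against 3.57 over all X genes, and lay in none of the autosomal ones. The channel genes with gained peaks were Sh, cac, a calcium channel gene (2 peaks), SK (2 peaks), eag, Ca-alpha1T, nAChRalpha3, a nicotinic receptor subunit gene, and the innexin genes shakB and ogre on X. On 3L they were tipE, a sodium channel auxiliary gene, Shal, a potassium channel gene, and Rdl, a GABA receptor gene. Hk, which encodes a Shaker subunit, and para had a kept peak and no gained one.

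Of 18 genes of synaptic release and second messengers, 3 had gained peaks (16.7%, against 1.61% of all genes), brp and dnc with 3 each and rdgA, a diacylglycerol kinase gene, with 1. Their median length is 29767 bp. Per Mb of gene the list had 8.13 gained peaks on X, near the 6.89 of all X genes, and 13.4 on autosomes, against 2.18 for all autosomal genes, where all 3 peaks lay in brp. Kept peaks lay in 4 genes of the list, Tomosyn, hiw, norpA and rdgA, all on X, at 12.2 per Mb against 3.57 over all X genes. Tomosyn, an inhibitor of vesicle release, had 2 kept peaks 1320 bp apart and no gained one. Of 37 genes of developmental transcription factors and cofactors 9 had gained peaks (24.3%), 6 of the 14 on X (42.9%). They were mamo with 4, hth with 3, run, Smr and Eip75B with 2 each, and bi, sd, Cph and luna with 1 each. Their median length is 35231 bp. On X the density was 15.9 gained peaks per Mb of gene, against 6.89 over all X genes, and on autosomes 5.27, against 2.18. For kept peaks it was 7.23 on X, against 3.57, and 0.879 on autosomes, against 0.636. Both lists were likewise chosen with earlier results known, so their counts describe these genes and set none of them apart.

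A smaller share of the gained MSL2 peaks than of the kept ones lay at a CLAMP peak. CLAMP was mapped with the CLAMP antibody in the same mixture (429 peaks) and without MSL2 with the CLAMP antibody (74 peaks) and the FLAG antibody (354 peaks), in 2 libraries each and with other negative controls than the MSL2 lists. At least 1 of these lists had a peak at 72 of the 344 gained sites (20.9%, 16.8 to 25.6) and at 67 of the 122 kept ones (54.9%, 45.7 to 63.9). The other 272 gained sites overlapped none. In the same mixture the CLAMP antibody had a peak at 47 gained (13.7%, 10.2 to 17.8) and 61 kept sites (50%, 40.8 to 59.2), which were 11.0% and 14.2% of its own peaks. The FLAG list covered 46 gained (13.4%, 9.96 to 17.4) and 37 kept sites (30.3%, 22.3 to 39.3), 13% and 10.5% of that list. The list of the CLAMP antibody without MSL2 covered 8 gained and 10 kept sites.

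The difference between the classes was present on X and on the autosome arms. On X, 33 of 136 gained peaks lay at any CLAMP peak (24.3%, 17.3 to 32.4), against 45 of 67 kept ones (67.2%, 54.6 to 78.2). On the autosome arms it was 29 of 197 (14.7%, 10.1 to 20.5) against 21 of 54 (38.9%, 25.9 to 53.1). The median distance from a gained peak on X to the nearest CLAMP-antibody peak of the mixture was 16671 bp, and from a kept one 99.0 bp. That list came from 3875205 tags, so CLAMP below its threshold at gained sites was not detectable at this depth. Gained arm peaks at a CLAMP peak were on X in 53.2% of cases (33 of 62, 40.1 to 66.0) and those at none in 38% (103 of 271, 32.2 to 44.1), intervals that overlap.

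**Figure D4:**
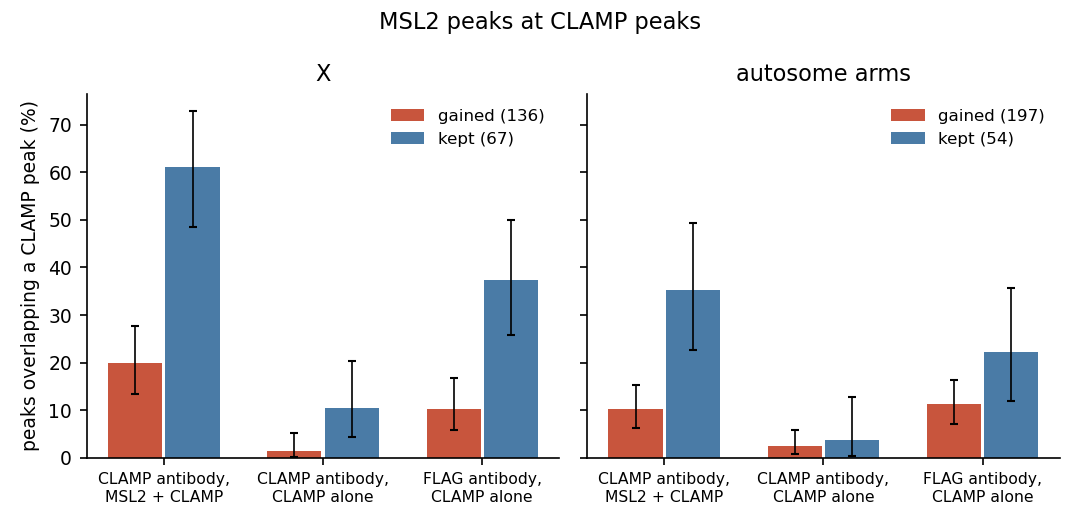
Share of gained (left bar) and kept (right bar) MSL2 peaks that overlap a CLAMP peak by at least 1 bp, in %, with exact 95% intervals, for 3 CLAMP peak lists on X (left) and on the autosome arms (right). In the MSL2 + CLAMP mixture the CLAMP antibody covers 19.9% of gained and 61.2% of kept peaks on X, and 10.2% and 35.2% on the autosome arms.

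The gained sites found in the most lists of the CLAMP and FLAG antibodies, mutant lists included, were few and well separated. The site at 3L 17159653 to 17159803, in Rbp6, whose product binds RNA, was in all 6. Those in CG34353 (3R 27770730 to 27770880) and mamo (X 13882458 to 13882608) were in 5. The sites in Pzl (3R 3033551 to 3033701), Cow (3R 23074590 to 23074740) and rdgA (X 9023433 to 9023583) were in 4. All 4 gained peaks in mamo overlapped a CLAMP-antibody peak of the mixture, as did 3 of the 6 in Sh. In Eip75B and SK none overlapped a CLAMP peak of any of the 3 lists, and in brp 1 of 3 overlapped a FLAG peak. Gained sites of single genes thus differed in whether CLAMP was called there.

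The order of peaks in the deposited list separated X from the autosomes, and kept from gained peaks. The score column is 1 throughout and the headers do not say what the order ranks. Of the first 116 peaks with CLAMP, 64 were gained (55.2%, 45.7 to 64.4), and of the last 117 (places 350 to 466) 96 were (82.1%, 73.9 to 88.5), where 73.8% of the whole list was. X held 13.9% of the arm peaks among the first 116 and 88.7% among the last 117. The median place was 379.5 for gained peaks on X, 266 for kept ones on X, 179 for gained ones on the autosome arms and 85.5 for kept ones there.

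Within each chromosome class the gained share grew toward the end of the list. Among the 15 X peaks of the first 116 places, 1 was gained (6.67%, 0.169 to 31.9), and among the 102 X peaks of the last 117 places 82 were (80.4%, 71.4 to 87.6). On the autosome arms it was 55 of 93 (59.1%, 48.5 to 69.2) at the start and 12 of 13 (92.3%, 64.0 to 99.8) at the end. In each of the 4 parts of the list the gained share was lower on X than on the autosome arms, with overlapping intervals in the last. In the first 50% of the list with CLAMP, X held 10.2% of the gained and 35.5% of the kept arm peaks, where X is 17.6% of the arm length. The surplus of gained peaks on X in the whole list thus came from its later part.

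**Figure D5:**
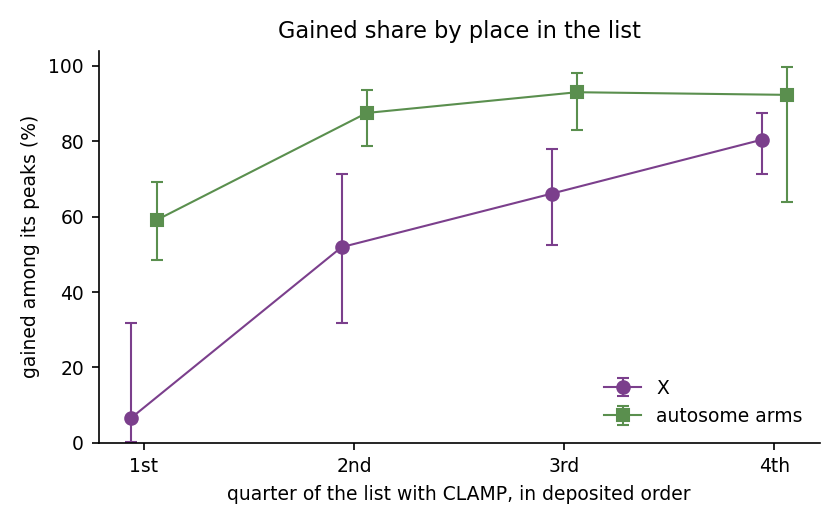
Share of gained peaks among the MSL2 peaks with CLAMP, in %, in 4 successive parts of the deposited list (about 117 peaks each), for X (circles) and the autosome arms (squares), with exact 95% intervals. On X the share is 6.67% in the first part and 80.4% in the last, and on the autosome arms it is 59.1% and 92.3%.

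CLAMP overlap was also set beside the order of the list, with X, autosome arms and Y pooled. The mix of chromosomes changes along the list, with 8 Y peaks among the first 116. A trend of the overlap with the order within a chromosome class was not tested. In the 4 parts of the list the gained sites lay at any CLAMP peak in 23.4%, 25%, 18.5% and 17.7% of cases, and the kept sites in 50%, 60.0%, 70.8% and 42.9%. The gained share was the lower one in all 4 parts, with intervals that did not overlap in the first 3 (13.8 to 35.7 against 35.8 to 64.2 in the first). In the last part the intervals were 10.7 to 26.8 for gained and 21.8 to 66.0 for kept sites.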

How the data were processed

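MSL2-antibody peak lists of MSL2 + CLAMP and MSL2, called on merged libraries, were compared. Per the submitters' processing notes the tools were Bowtie2 2.2.9, SAMtools 1.9 and HOMER 4.9, with build dm6. Per the file headers the authors called peaks in factor style against the negative control of the same antibody, requiring 10-fold over it, 4-fold over the local 10000 bp, each at a Poisson p-value of 1e-04, and a false discovery rate of 0.001. The deposited score is 1 in every line, so positions only were used; all peaks of these 2 lists span 151 bp except 1 of 38 bp. Tag totals, which the authors wrote into the file headers, give the depth.

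Starts were converted to 1-based. Distances are between peak centres. Densities used arm lengths up to the last base of a gene or peak, and genes came from a RefSeq gene table (Release 6 plus ISO1 MT, which is dm6) without strand, exons or sequence, so promoters and motifs were not analysed here. Shares carry Clopper-Pearson 95% intervals and densities exact Poisson ones. The overlap code was tested on simulated data. Alternatives covered the overlap rule, distance, chromosomes and list length. Named sites were those in or within 2 kb of complex and GA-factor genes, lost peaks, genes with the most gained peaks or with both classes, the 10 nearest and 10 farthest gained peaks, those in most CLAMP and FLAG lists, and listed genes. A planned ranking by width was dropped because widths do not vary. Close pairs, Y peaks and the split by place were added after the values were seen. Members and lists were chosen with earlier results of these data known. Python 3.11.15, numpy 2.4.6, scipy 1.17.1, pandas 2.3.3 and matplotlib 3.10.9 were used.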

Additional observations from a re-analysis of the deposited data

How the results depend on the processing

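Of 35 alternative values for 11 results, 27 stayed within 1.5 times the count or inside the interval of the share or median. With reciprocal overlap of at least 50% the lost peaks numbered 19 in place of 10. With each list cut to its first 50% of lines 58 MSL2-alone peaks were kept and 175 peaks were gained. With the first 50% of the list with CLAMP against the whole MSL2-alone list, chosen for the counts after seeing the data, 77 were kept, 55 lost and 156 gained. The X share was then 10.2% for gained and 35.5% for kept peaks, against 40.8% and 55.4% in the whole list and 17.6% of the arm length, so the gained share turned from above to below the share of length. The smaller counts follow from the shorter lists, and the cause of the lower X shares was not tested. A stricter threshold could not be set because the score does not vary, and sequence motifs were not run. Libraries could not be left out since each list is merged. No paired analysis was possible because the lists are merged over replicates and the results come from no test. Depth limits what a missing peak means in any list.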
